A study of Zea mays with 18 samples.

Results

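The chilling effect on maize microRNAs (miRNAs) was compared between 3 zones of leaf 4, to find miRNAs that cold nights altered in one zone of the growing leaf more than in another. Every maize miRNA of the deposited table was taken, which is 228 rows. Rows with identical values in all 6 groups were counted once, which gave 147 distinct profiles, so all 147 of 147 profiles are described. A profile shared by several miRNAs carries their joint name, as in miR396c/d, because such members cannot be told apart here.

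Seedlings of the maize hybrid ADA313 were grown with 16 h of day at 25 °C and 8 h of night at 20 °C, at 70% relative humidity and 15000 lux. For the chilled seedlings the night was lowered to 4 °C and nothing else was changed. Meristem, elongation zone and mature zone of leaf 4 were sampled from each, giving 6 groups of 3 arrays that the labels call biological replicates. The sources used here do not give the length of the chilling, the age of the seedlings, the borders of the zones or any pooling of seedlings. The values analysed are the authors' bi-weight average log2 signals, 1 per group, so no value of a single array is given. The chilling effect in a zone is the chilled minus the control average, and the quantity tested is the difference of that effect between zones.

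Plant miRNAs are cut from hairpin precursors that carry a 5p and a 3p arm. One arm usually enters an ARGONAUTE protein as the guide and directs the cleavage of matching transcripts, while the other is mostly discarded. The leaf of a grass grows from its base, so cells pass from division in the meristem through elongation to maturity, and several conserved miRNA families control the transcription factors of these steps. The miR396 family, which in Arabidopsis leaves is low in the dividing base, was read beside the zone labels, and its members differed. From the base of the control leaf, miR396c/d stood at 3.70, 11.31 and 11.80 and miR396a/b-5p at 1.36, 2.48 and 2.05. The profile of miR396g-5p and miR396h (1.15, 1.97 and 1.45) and miR396e/f-5p (0.90, 1.24 and 1.41) were also lowest in the meristem, with all these levels under log2 2. The opposite arms miR396e-3p (10.84, 11.09 and 9.79) and miR396g-3p (2.61, 2.45 and 1.06) were lowest in the mature zone. The opposite arm miR396a/b-3p (2.15, 5.74 and 4.88) was lowest in the meristem. Whole tissue was measured, so fewer cells of a type and less RNA per cell cannot be told apart.

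The chilling effect differed between zones for 10 of the 147 profiles (6.8%), which stand for 16 miRNAs of 9 families. The mature zone had the lowest of the 3 effects in 9 of the 10 and the highest in the other, miR160f-3p. Among the 9, miR396c/d had a mature effect of -0.39, near its elongation zone effect of -0.05. The share over all 147 profiles was not counted, and these same effects had picked the 10. In 7 of them the level fell in the chilled mature zone, a fall called in 14 of all 147 profiles (9.52%), and these 7 were miR159e-3p, miR166h-5p, miR166b/d-5p, miR399d-3p, miR390a/b-3p, miR169m-3p and the profile shared by miR172a and miR172b/c/d-3p. In the meristem miR396c/d rose. For miR160f-3p and miR167g-3p the effects differed between zones, though none of the 3 single effects passed. The test was limma's moderated F over both interaction contrasts, on variances recovered from the authors' deposited ANOVA p-values, with Benjamini-Hochberg adjustment over the 147 profiles and a threshold of 0.05. At an unadjusted p under 0.05 there were 25 profiles.

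**Figure D1:**
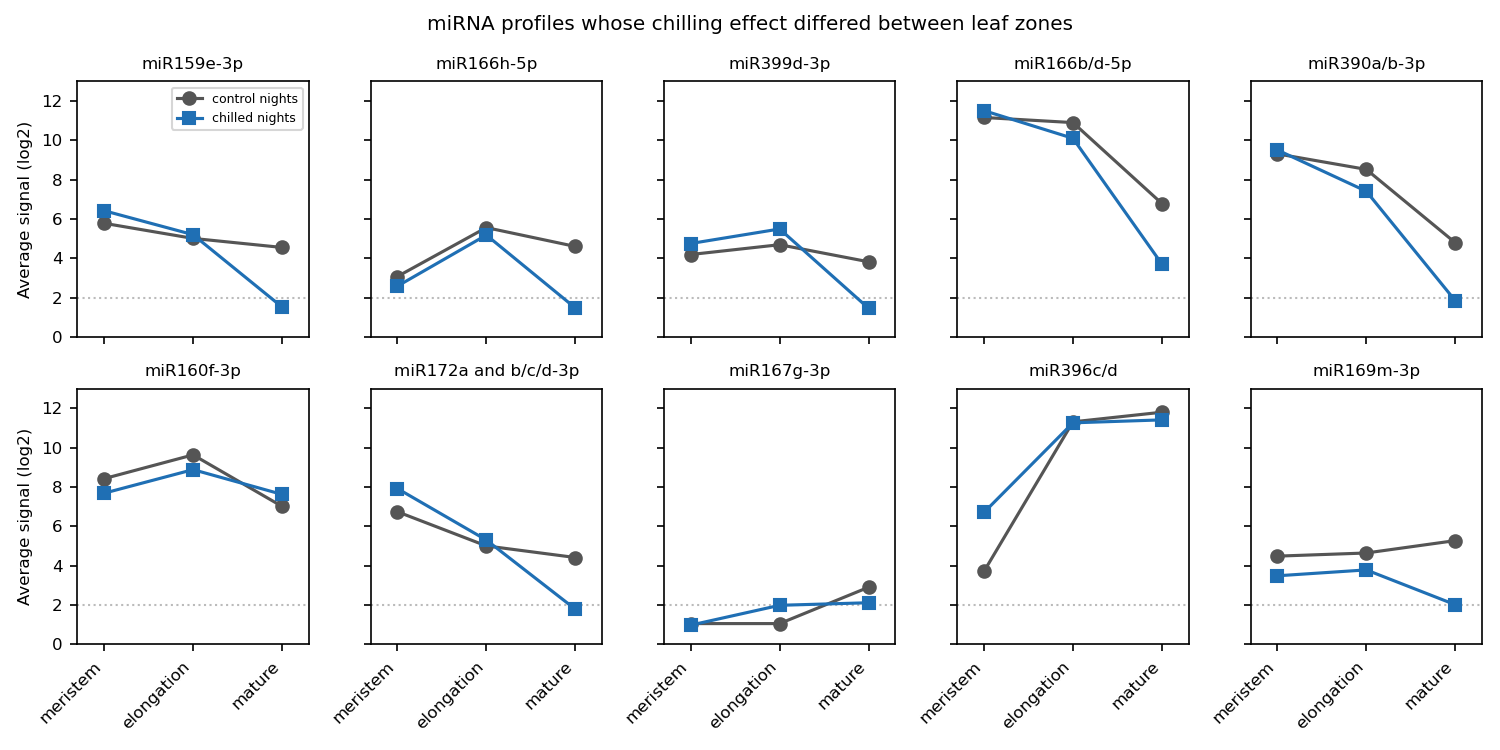
Average log2 signal (y axis) of the 10 profiles whose chilling effect differed between zones, in the 3 zones of leaf 4 (x axis), for control nights (grey circles) and chilled nights (blue squares). The dotted line marks log2 2. In 7 panels the lines part in the mature zone, where the chilled level is 1.46 to 3.71, and for miR396c/d they part in the meristem, at 3.70 and 6.70.

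The fall of a guide arm in chilled mature tissue had the smallest interaction p for miR159e-3p, whose family cleaves transcripts of GAMYB transcription factors. From meristem to mature zone its control levels were 5.79, 5.02 and 4.56, and its chilled levels were 6.43, 5.21 and 1.53. The control and chilled levels thus lay within 0.64 of each other in the meristem and the elongation zone and parted in the mature zone. The mature effect was -3.03 (SE 0.45, adjusted p = 0.000391), against 0.64 and 0.19 in the meristem and the elongation zone. It differed from the meristem effect by -3.67 (95% interval, not adjusted for the number of tests, -5.04 to -2.30, adjusted p = 0.00771) and from the elongation zone effect by -3.22 (-4.59 to -1.85, adjusted p = 0.00914). Of the other miR159 3p profiles, miR159c/d-3p and miR159h/i-3p were far more abundant in mature tissue and gave smaller values. The miR159c/d-3p level was 12.09 in the control and 11.96 in the chilled mature zone, and miR159h/i-3p was 10.85 and 10.54, and neither interaction passed (adjusted p = 0.542 and 0.316). The miR159g-3p level fell from 5.61 to 3.54 in the mature zone (-2.07, adjusted p = 0.0411, and -0.31 with quantile normalization). Its mature minus meristem difference was -2.93 (-1.72 with quantile normalization), but its interaction did not pass (adjusted p = 0.111).

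The miR172 guides, which act on AP2-type factors in the change from juvenile to adult leaves, had the largest difference of effects between mature zone and meristem. The profile shared by miR172a and miR172b/c/d-3p had control levels of 6.74, 5.0 and 4.41 along the leaf and chilled levels of 7.92, 5.30 and 1.78. Its effects had opposite signs, 1.18 in the meristem, which did not pass (adjusted p = 0.384), and -2.63 in the mature zone (SE 0.59, adjusted p = 0.00705). The mature effect differed from the meristem effect by -3.81 (-5.61 to -2.01, adjusted p = 0.0119), while the difference from the elongation zone, -2.93, did not pass (adjusted p = 0.0545). Put as a gradient, the level of the mature zone minus that of the meristem was -2.33 in control and -6.14 in chilled leaves. The related miR172e, at 8.19 in the control and 7.74 in the chilled mature zone, had an interaction that did not pass (adjusted p = 0.714).

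Members of the phosphate family miR399, whose 3p guides target the PHO2 regulator of phosphate uptake, had mature effects of different sign. Control levels of miR399d-3p were 4.20, 4.70 and 3.83 in order along the leaf, against chilled levels of 4.76, 5.5 and 1.46. Its mature effect of -2.37 (SE 0.43, adjusted p = 0.00136) differed by -2.93 from the meristem effect (-4.22 to -1.64, adjusted p = 0.00771) and by -3.17 from that of the elongation zone (-4.46 to -1.88, adjusted p = 0.00914). The miR399a/c/h-3p level rose in the mature zone, from 5.61 to 7.20 (1.59, SE 0.21, adjusted p = 0.000182), against effects of 0.52 and 0.56 in the other zones. That rise exceeded the meristem effect by 1.07 (0.42 to 1.72, adjusted p = 0.0465), though over all 3 zones the interaction did not pass (adjusted p = 0.0617). The difference between these members was not tested. Another phosphate miRNA with a called contrast was miR827-5p, the arm opposite the usual guide, at 1.84 in the control and 2.68 in the chilled mature zone. Its mature effect exceeded that of the meristem by 0.93 (0.36 to 1.5, adjusted p = 0.0465), and its interaction did not pass (adjusted p = 0.0773). Only its chilled mature level was above log2 2. With averages under 2 raised to 2, that difference of miR827-5p was 0.68 and did not pass (adjusted p = 0.203), and it passed under 4 of 10 alternatives. For miR399b-3p, named here after its values were seen, the mature minus elongation difference passed (-1.20, -1.86 to -0.54, adjusted p = 0.0362) and the interaction did not (adjusted p = 0.0624). Its control levels were 1.66, 1.70 and 1.30 along the leaf and its chilled levels 1.68, 2.51 and 0.91, so 5 of the 6 were under log2 2.

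**Figure D2:**
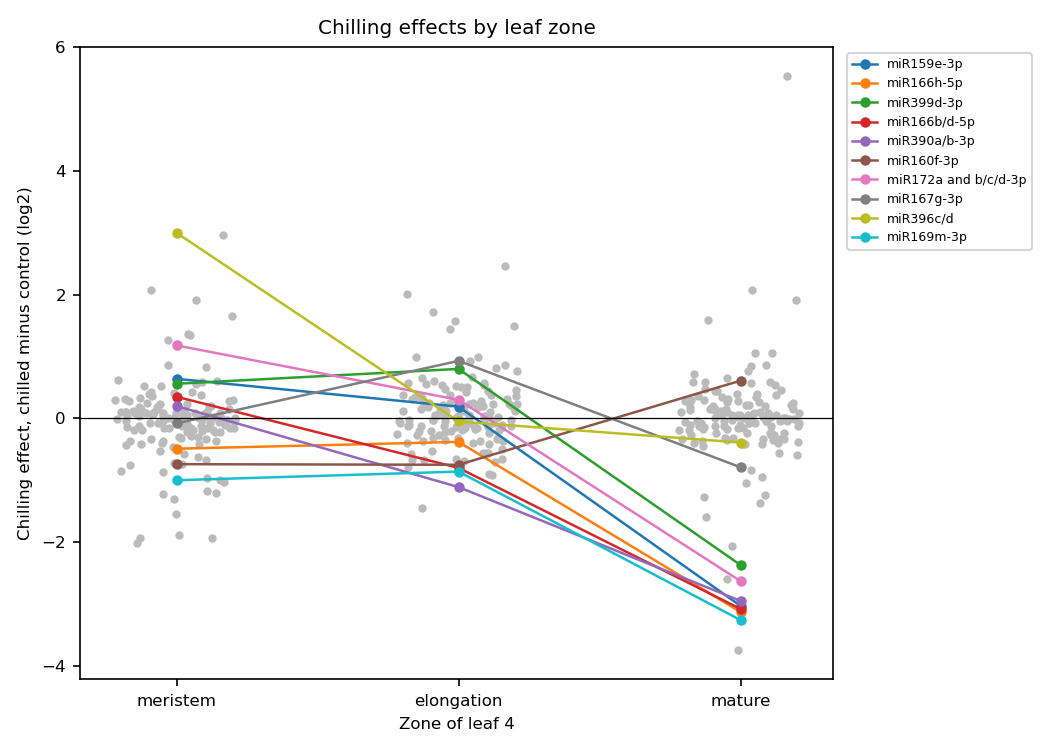
Chilling effect, chilled minus control average in log2 units (y axis), in each zone (x axis). Coloured lines join the effects of the 10 profiles with a called interaction and grey points are the other 137 profiles, spread sideways at random. The mature zone holds the lowest effect of 9 coloured lines. In the 7 of these whose level fell there, that effect lies from -3.26 to -2.37 and the meristem effect between -1.0 and 1.18.

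Arms opposite the usual guide made up 6 of the 10 profiles and 83 of all 147 (56.5%), so their share was near that of the whole table. The miR166 family guides the cleavage of HD-ZIP III transcripts, which set the upper side of the leaf, through its 3p arm, and its 5p arm was measured in 11 profiles. With control nights miR166h-5p stood at 3.08, 5.57 and 4.61 along the leaf, and with chilled nights at 2.59, 5.19 and 1.48. Its mature effect of -3.13 (SE 0.36, adjusted p = 9.66e-05) differed by -2.75 from the elongation zone effect (-3.86 to -1.64, adjusted p = 0.00914) and by -2.64 from the meristem effect (adjusted p = 0.00771). For miR166b/d-5p the levels along the leaf were 11.17, 10.91 and 6.79 with control nights, and 11.52, 10.11 and 3.71 with chilled nights. Its effects stepped down from 0.35 through -0.80 to -3.08, with a mature minus meristem difference of -3.43 (-4.89 to -1.97, adjusted p = 0.00771) and a mature minus elongation difference of -2.28 that did not pass (adjusted p = 0.0583). With quantile normalization its mature minus elongation difference was -0.04 and its elongation minus meristem difference was -1.34. None of the other 9 miR166 5p profiles passed in limma's interaction test (adjusted p from 0.312 to 0.929), and 8 of these 9 were under log2 2 in the control mature zone already.

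The miR390a/b-3p profile, opposite the 5p arm that triggers the TAS3 small RNAs of the auxin pathway, had levels of 9.32, 8.53 and 4.80 along the control leaf, and of 9.52, 7.42 and 1.85 along the chilled leaf. Its effects were 0.20, -1.11 and -2.95, of which the mature one passed (SE 0.46, adjusted p = 0.000423). The mature effect differed from that of the meristem by -3.15 (-4.53 to -1.77, adjusted p = 0.00771), and the difference from the elongation zone, -1.84, did not pass (adjusted p = 0.105). The miR169m-3p arm, of a family whose 5p guides target NF-YA factors, gave 4.48, 4.64 and 5.27 along the control leaf, and 3.48, 3.78 and 2.01 along the chilled leaf. All 3 of its effects were below 0, at -1.0, -0.86 and -3.26, and the mature one passed (SE 0.43, adjusted p = 0.000182). It differed by -2.26 from the meristem effect (-3.56 to -0.96, adjusted p = 0.0377) and by -2.40 from that of the elongation zone (-3.70 to -1.10, adjusted p = 0.036).

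Both arms of the same genes were in the table for 7 of the 10 profiles, with the same opposite-arm profile for both miR166 5p profiles. None of the opposite arms had a called interaction (limma adjusted p from 0.312 to 0.771), beside 10 of all 147 profiles (6.8%). With so few arms, the lack of calls is near that share. Against the fall of miR390a/b-3p, the guide miR390a/b-5p stood at 9.82 in the control and 10.22 in the chilled mature zone, and its mature minus meristem difference was 0.59 (-0.05 to 1.23). The miR166 3p guide profile shared by miR166b, c, d, e, f, g, h and i stood at 7.92 in the control and 8.64 in the chilled mature zone, with a mature minus meristem difference of 1.09 (-0.65 to 2.83). The interval of the miR390 guide lies wholly above that of its opposite arm, and the interval of the miR166 guide lies wholly above those of both miR166 5p profiles. The intervals of miR172c-5p (-1.31 to 5.29) and of the miR172 guide profile did not overlap either. However, miR172c-5p covers only 1 of the 4 genes of that profile. It was under log2 2 in the mature zone, at 0.98 in the control and 1.04 in the chilled leaf, so a fall there was not detectable. For the mature minus meristem contrast the interval of miR169m/n/q-5p (-1.35 to 0.29) overlapped that of miR169m-3p. The miR169m/n/q-5p level was under log2 2 in the mature zone, at 1.69 in the control and 1.34 in the chilled leaf. The interval of the miR167 5p guides (-1.37 to 0.65) overlapped that of miR167g-3p (-1.52 to 0.10). The difference between arms was itself not tested. Because the called profiles were picked for large differences between zones, an arm outside the calls can lie apart from them through that choice alone. With quantile normalization the mature minus meristem difference was -1.49 for miR390a/b-3p and 0.26 for its guide. It was -1.38 for miR166b/d-5p, -2.45 for miR166h-5p and 0.14 for the miR166 guide profile. The miR159e-5p arm was under log2 2 in all 6 groups, from 0.93 to 1.33, so it gives no comparison.

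**Figure D3:**
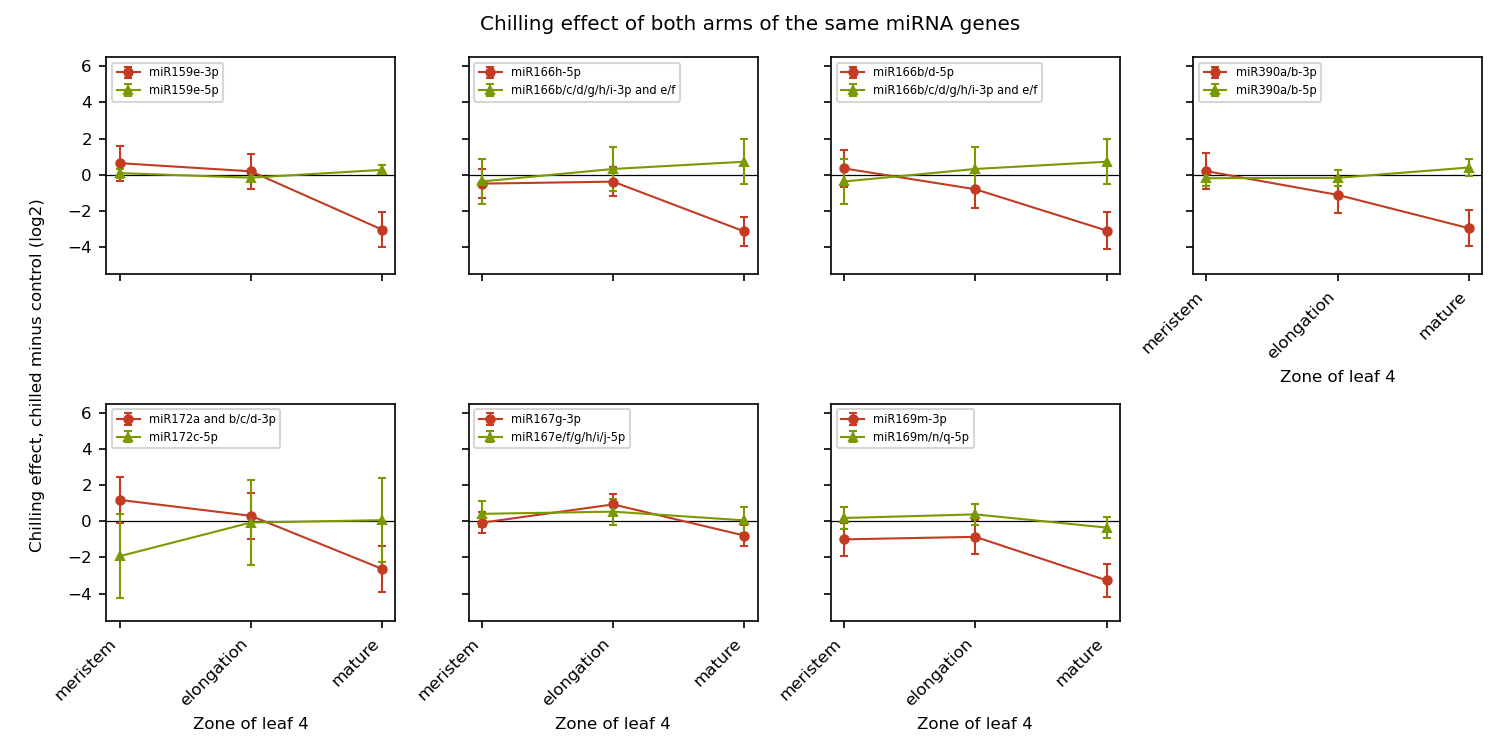
Chilling effect in log2 units (y axis) in each zone (x axis) for 7 profiles with a called interaction (red circles) and the opposite arm of the same genes (green triangles), with 95% intervals from the recovered variances. In the mature zone miR390a/b-3p lies at -2.95 and its opposite arm at 0.40.

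In the meristem miR396c/d, a guide that targets growth-regulating factors, stood at 3.70 in control and 6.70 in chilled seedlings. Its levels were 11.31 and 11.26 in the elongation zone and 11.80 and 11.41 in the mature zone, so the treatments parted in the meristem, where the level was lowest. It rose there by 3.00 (SE 0.59, adjusted p = 0.013), against effects of -0.05 and -0.39 in the other zones. The mature minus meristem difference was -3.39 (-5.18 to -1.60, adjusted p = 0.0222). The elongation minus meristem difference was nearly as large, -3.05 (-4.84 to -1.26), and did not pass after adjustment (adjusted p = 0.27). The mature zone stood above the meristem by 8.1 with control nights and by 4.71 with chilled nights. The opposite-arm profile of other members, miR396a/b-3p, had effects of 1.91, 0.18 and -1.37, and its interaction did not pass (adjusted p = 0.331). With quantile normalization its mature effect was 0.40 and its mature minus meristem difference -0.92.

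For miR160f-3p, opposite the arm that targets auxin response factors, chilled levels were lower than control levels in the meristem (7.68 and 8.42) and the elongation zone (8.88 and 9.63) and higher in the mature zone (7.62 and 7.01). None of these single effects passed (adjusted p = 0.0861, 0.0678 and 0.101), but their difference did. The mature effect exceeded that of the meristem by 1.35 (0.66 to 2.04, adjusted p = 0.0201) and that of the elongation zone by 1.36 (0.67 to 2.05, adjusted p = 0.0265). Among the other miR160 profiles, miR160a-3p had a mature effect of the other sign, from 4.95 to 2.36 (-2.59, adjusted p = 0.00705; -0.40 with quantile normalization), with an interaction that did not pass (adjusted p = 0.164).

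The elongation zone had the highest effect for a pair of miR167 3p arms, opposite the 5p guides of auxin response factors. Along the control leaf miR167g-3p stood at 1.05, 1.05 and 2.90, and along the chilled leaf at 0.97, 1.98 and 2.11. Its mature effect was below its elongation zone effect by 1.72 on the log2 scale (-1.72, interval -2.53 to -0.91, adjusted p = 0.0169), with 4 of its 6 levels under log2 2. The miR167e-3p level rose in the elongation zone from 2.83 to 4.84 (2.01, SE 0.42, adjusted p = 0.0216), against effects of 0.10 and -0.18 in the other zones. Its mature minus elongation difference passed (-2.19, -3.46 to -0.92, adjusted p = 0.0448), and its interaction over the 3 zones did not (adjusted p = 0.0617). The 5p guides of miR167e to miR167j gave effects of 0.41, 0.53 and 0.05, and their interaction did not pass (adjusted p = 0.771). In the growth list, the profile of miR396g-5p and miR396h rose in the elongation zone from 1.97 to 2.54 (0.57, adjusted p = 0.0357). Its mature effect was lower by a difference of -0.67 (-1.07 to -0.27, adjusted p = 0.0492), with an interaction that did not pass (adjusted p = 0.0863). Only its chilled elongation zone level was above log2 2. The difference was -0.54 with averages under 2 raised to 2 (adjusted p = 0.146) and -0.2 with median subtraction (adjusted p = 0.493). It passed under 3 of 10 alternatives.

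**Figure D4:**
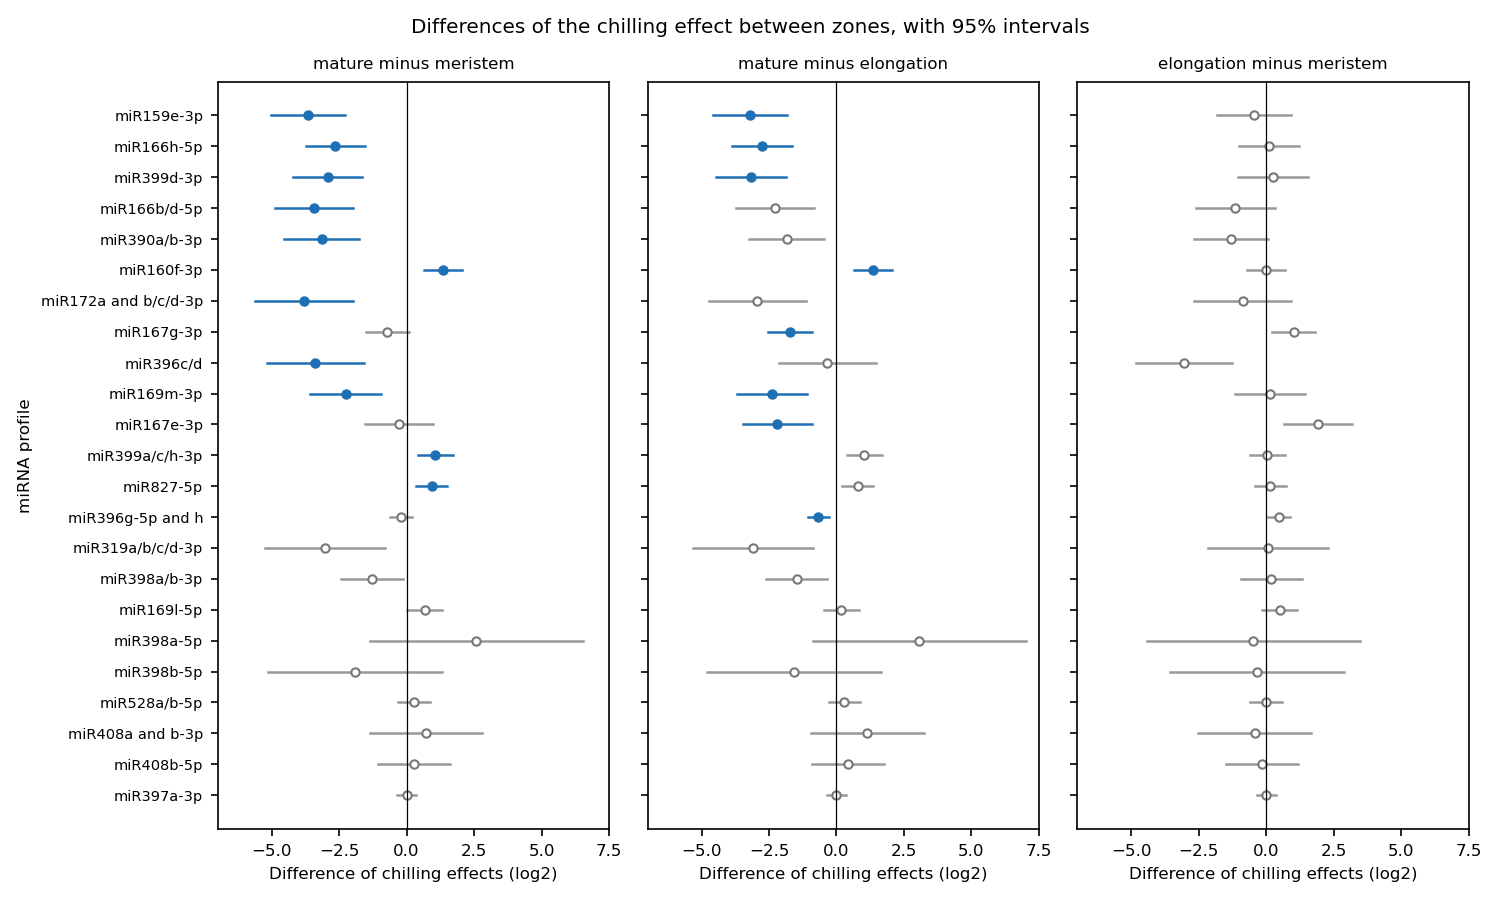
Differences of the chilling effect between zones in log2 units (x axis) for the 23 named profiles (y axis), with 95% intervals from the recovered variances. Filled blue points passed the adjusted threshold in that contrast and open grey points did not. No point is filled for the elongation zone against the meristem.

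Over all profiles the contrasts with the mature zone held the calls. The mature effect differed from the meristem effect in 11 profiles (7.48%), and was higher in 3 (2.04%) and lower in 8 (5.44%). It differed from the elongation zone effect in 9 profiles (6.12%), and was higher in 1 (0.68%) and lower in 8 (5.44%). Between the elongation zone and the meristem limma called 0 of 147 profiles (0%), with 16 at an unadjusted p under 0.05. The median 95% interval of that contrast before adjustment reached 0.821 log2 units to either side. The excess of lower calls depended on the scaling. With quantile normalization the mature minus meristem split was 17 higher and 12 lower and the mature minus elongation split 16 and 7, and with median subtraction the latter was 21 and 5.

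Within single zones, 21 profiles (14.3%) changed in the mature zone, where 7 rose (4.76%) and 14 fell (9.52%). In the elongation zone 4 changed (2.72%), where 3 rose (2.04%) and 1 fell (0.68%). In the meristem 2 changed (1.36%), where 1 rose (0.68%) and 1 fell (0.68%). With quantile normalization the mature split was 23 higher and 17 lower, and with median subtraction 15 and 12. With median subtraction the elongation zone split was 1 higher and 26 lower. Of the 14 mature falls, 7 had a called interaction. Of the 7 mature rises, limma called the interaction in 0, with 3 at an unadjusted p under 0.05.

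A called effect in the mature zone was in several profiles not matched by a called difference between zones. The miR319a/b/c/d-3p guide of TCP factors fell from 5.34 to 1.59 in the mature zone, with 10.47 and 9.75 in the meristem and 5.59 and 4.93 in the elongation zone. Its mature effect of -3.75 (SE 0.73, adjusted p = 0.00275) was the lowest of all 147, yet the difference from the meristem was -3.03 with a wide interval (-5.26 to -0.80, adjusted p = 0.129), and the interaction did not pass (adjusted p = 0.13). Another such profile was miR169l-5p, a guide of NF-YA factors, which fell in every zone. Its control levels of 7.36, 7.73 and 7.64 along the leaf stood against chilled levels of 5.42, 6.28 and 6.37, with effects of -1.94, -1.45 and -1.27 (adjusted p = 5.16e-05, 0.00142 and 0.000814). Its mature minus meristem difference was 0.67 (0.02 to 1.32, adjusted p = 0.27), so a difference of that size between zones was not detectable after adjustment.

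The copper, laccase and oxidative stress list, with families that target copper proteins, had 7 profiles, of which limma called the interaction in 0, beside 10 of all 147 (6.8%), and 1 had an unadjusted p under 0.05, beside 25 of all 147. Its median effect was 1.36 in the meristem, 1.45 in the elongation zone and 0.87 in the mature zone, beside -0.01, 0.04 and -0.01 over all profiles. The effects of miR408b-5p were 1.65, 1.49 and 1.92, and its mature minus meristem difference was 0.27 (-1.07 to 1.61), or -0.24 with quantile normalization. Those of miR528a/b-5p were 0.59, 0.58 and 0.87, with a difference of 0.28 (-0.30 to 0.86). The shared profile of miR408a and miR408b-3p had effects of 1.36, 0.93 and 2.08, with a difference of 0.72 (-1.37 to 2.81). The miR397a-3p level stayed under log2 2 in all 6 groups.

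Within that list the miR398 arms, of a family that targets copper/zinc superoxide dismutases, had different values in the mature zone. Along the leaf miR398a-5p stood at 2.89, 3.62 and 1.24 with control nights and at 5.85, 6.09 and 6.78 with chilled nights. For miR398b-5p the same levels were 3.67, 3.65 and 1.38, and 5.74, 5.37 and 1.54. Both had chilled levels above control levels in the meristem and the elongation zone, and in the mature zone miR398a-5p rose (5.54, SE 1.30, adjusted p = 0.00798) while miR398b-5p had an effect of 0.16 (adjusted p = 0.99), and the difference between them was not tested. Neither interaction passed (adjusted p = 0.53 and 0.675), with mature minus meristem intervals of -1.37 to 6.53 and -5.13 to 1.31. The miR398a/b-3p guide had effects of 1.26, 1.45 and -0.03, and its mature minus elongation difference was -1.48 (-2.62 to -0.34, adjusted p = 0.114). Its mature levels were 0.99 in the control and 0.96 in the chilled leaf. Both this guide and miR398b-5p were thus under log2 2 in both mature groups, and miR398a-5p was so in the control mature zone.

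**Figure D5:**
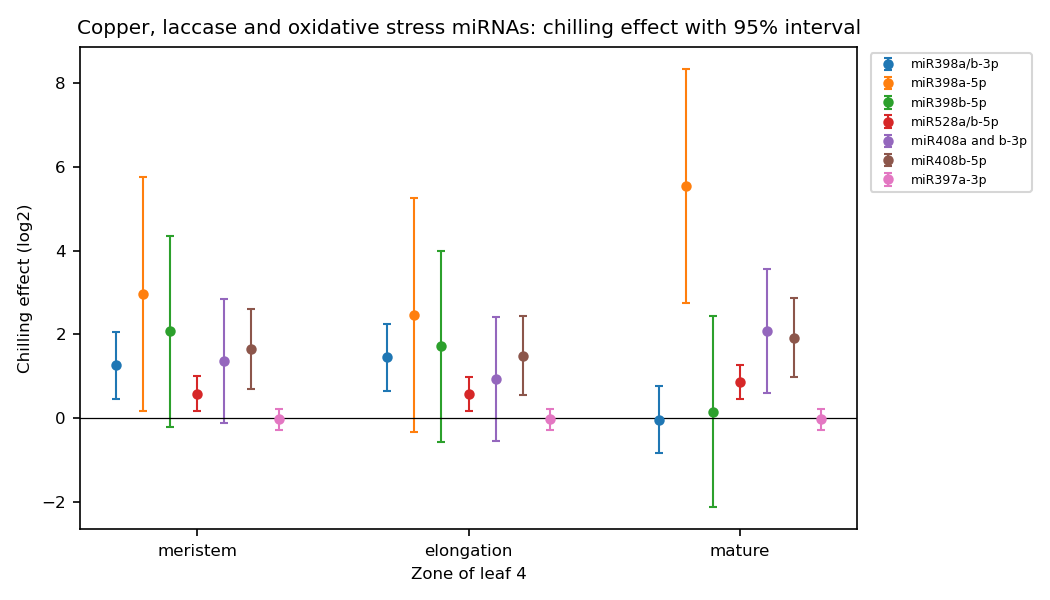
Chilling effect in log2 units (y axis) of the 7 profiles of the copper, laccase and oxidative stress list in each zone (x axis), with 95% intervals from the recovered variances. In the mature zone miR398a-5p lies at 5.54 and miR398b-5p at 0.16, while miR408b-5p lies between 1.49 and 1.92 in all 3 zones.

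Of the other lists, the growth and phase change list had 5 of 68 profiles with a called interaction, beside 10 of all 147 (6.8%), and its median mature minus meristem difference was 0.01, beside 0.02 over all profiles. The auxin list had 3 of 21 (miR390a/b-3p, miR160f-3p and miR167g-3p, all opposite the usual guide) and a median of -0.05. The stress factor list had 1 of 13, miR169m-3p, with a median of 0.17, and the sulfate and phosphate list had 1 of 20, miR399d-3p, with a median of 0.06. For the small RNA machinery list, which holds the families that target DICER-LIKE1 and ARGONAUTE1, limma called 0 of 4 profiles, and for the triggers of phased small RNAs 0 of 14, and in both lists none had an unadjusted p under 0.05.

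Low signal touched the list of 10. In 5 of the 7 profiles that fell in the chilled mature zone the chilled level was under log2 2, beside 91 of all 147. A level under log2 2 is taken here as near background, so the full size of these 5 falls was not detectable. With all averages under 2 raised to 2, 9 of the 10 interactions passed again, and miR167g-3p did not (adjusted p = 0.483). With quantile normalization 5 of the 10 passed, and miR166b/d-5p, miR390a/b-3p, miR160f-3p, miR167g-3p and miR169m-3p did not. Their named differences were then -1.38, -1.49, 0.79, -0.44 and -0.52, and the mature minus elongation difference of miR167e-3p was -0.16. Under the same scaling the mature effects of miR166b/d-5p, miR390a/b-3p, miR169m-3p and the shared miR172 profile were -1.19, -1.42, -1.34 and -1.45. The interactions of miR159e-3p, miR166h-5p and miR399d-3p passed under each of 9 alternatives (adjusted p from 0.0036 to 0.0483).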

How the data were processed

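RNA from 18 samples (10 µg each, Trizol extraction, FlashTag biotin labelling, per the labels' protocols) was hybridized to arrays, and Affymetrix Expression Console is named in the submitters' processing notes. Per the file headers, the authors deposited bi-weight average log2 signals for 6 groups, and for each row the p-value of an ANOVA on all conditions with its FDR p-value. The sources used here do not describe background correction or normalization. Arrays give no read depth, and 3 arrays per group limit the precision.

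No single-array values were analysed, so the planned fit on arrays was replaced. The deposited p-value was turned into F with 5 and 12 degrees of freedom. Dividing the between-group mean square by that F gave the residual variance. Variances were moderated with squeezeVar of limma 3.58.1 in R 4.3.3 (prior degrees of freedom 1.78, total 13.8). Contrasts were tested two-sided, with Benjamini-Hochberg adjustment over 147 profiles. Equal spread in all groups and bi-weight averages equal to means are assumed. The table's highest ANOVA p-value is 0.040982, so it was preselected, and the adjusted p-values may understate the share of false calls. The code was checked on simulated data.

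Named profiles were up to 12 with a called interaction, the 4 largest calls per direction and pairwise contrast, those with a called effect and one of opposite sign, the first 3 per zone without a called interaction, and the copper list, leaving out profiles under log2 2 in all groups except in the copper list. Other profiles of the same families were chosen after their values were seen. The members and lists were chosen with earlier results of these data known. P-values measure the spread between arrays called biological replicates. Of 157 miRNA genes named, 150 matched RefSeq of Zm-B73-REFERENCE-NAM-5.0.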

Additional observations from a re-analysis of the deposited data

Results flagged for a closer look

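These 10 profiles stand out because a test of the difference itself found unequal chilling effects in separate zones. Against the meristem, the mature effect differed by -3.81 for the profile of miR172a and miR172b/c/d-3p, by -3.67 for miR159e-3p, by -3.43 for miR166b/d-5p, by -3.39 for miR396c/d and by -3.15 for miR390a/b-3p. Against the elongation zone, it differed by -3.17 for miR399d-3p, by -2.75 for miR166h-5p, by -2.40 for miR169m-3p, by -1.72 for miR167g-3p and by 1.36 for miR160f-3p. All 10 differences are log2 values. For miR396c/d the contrast reflects a rise in the meristem, with mature levels of 11.80 and 11.41.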

How the results depend on the processing

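No paired analysis was possible because the deposited averages carry no replicate numbers, and leaving out single replicates was not run for the same reason. In each named profile the zone difference with the largest test statistic changed sign under no alternative, miR397a-3p being at 0, but some smaller differences did. The interaction was called in 16 with every probe set as a feature, 29 with quantile normalization, 31 with median subtraction, 5 without moderation and 3 with the recovered SD enlarged by 20%. Mature minus meristem calls numbered 19 with every probe set, 29 with quantile normalization, 7 with a trended robust prior and 5 with the enlarged SD. Mature minus elongation calls numbered 5 with every probe set, 23 with quantile normalization, 26 with median subtraction, 5 with low averages raised to 2, 5 with the trended prior and 3 with the enlarged SD. Elongation minus meristem calls reached 5, all lower, with median subtraction. Meristem effects were called in 19 with every probe set, 6 with quantile normalization or the trended prior and 1 with the enlarged SD. Elongation zone effects were called in 2 with every probe set or without profiles all under log2 2, 1 with quantile normalization or the enlarged SD, 27 with median subtraction and 11 with the trended prior. Mature effects were called in 32 with every probe set and 40 with quantile normalization. Median subtraction moved the median elongation zone effect from 0.04 to -0.3 and the median mature minus elongation difference from -0.02 to 0.45. The causes were not tested. Signal near background limits falls from control levels under log2 2, which 85 profiles had in the mature zone.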

Other observations

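Chilling effects of the zones share no group and can be set side by side over the 147 profiles, as a description across miRNAs that share arrays and are not independent. Pearson's r was 0.431 between meristem and elongation zone, 0.421 between elongation and mature zone and 0.227 between meristem and mature zone, with Spearman's rho of 0.256, 0.234 and 0.132. Over the 49 profiles with no average under log2 2, r was 0.431, 0.508 and 0.187 in the same order. The effects had 1 sign in all zones for 45 profiles, 20 above and 25 below 0. In 41 profiles all 3 pairwise 95% intervals lay within 1 log2 unit of 0, and 4 of these had no average under log2 2. The miR1432-5p level, a profile chosen after its values were seen, was 6.29 in the control and 4.40 in the chilled meristem, against 2.94 and 3.07 in the elongation zone, and its interaction did not pass (adjusted p = 0.164).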
